A study of Sus scrofa with 45 samples.

Results

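Transcripts of 10 genes for plasma proteins that the liver secretes were followed in pig blood: ALB, APOA1, APOB, APOC3, FGG, TF, SERPINA1, HP, TTR and RBP4. A probe was taken if its gene name, its RefSeq entry or its description on the array named 1 of these genes, which gave 25 of the 43603 probes. TF had 5 probes, APOB 4, HP 3, RBP4 1 and each of the other genes 2. Of the TF probes, A_72_P035546 is annotated on the array as the porcine inhibitor of carbonic anhydrase (PICA) and was counted under TF through its RefSeq entry. The study fed male specific-pathogen-free Clawn miniature pigs, 12 weeks old at the start, either control feed, a feed containing 15% lard and 2% cholesterol (HFCD), or the latter with 37% sucrose as well (HFCSD). Blood was drawn into PAXgene tubes for whole blood RNA after 10, 19 and 27 weeks, and white blood cells were caught on LeukoLOCK filters after 27 weeks. The 45 arrays, each read in 1 colour, form 12 groups. HFCSD whole blood at 19 weeks and both fat diets in whole blood at 27 weeks have 3 arrays and the other groups 4; their number limits precision. The study had 5 pigs per diet and bled them repeatedly, so that arrays of a diet from different times or sample types share pigs. The tests reported between times or sample types and the correlations over whole blood arrays treated arrays as independent. Levels are log2 normalized intensities, given as the mean (SD) of a group.

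Hepatocytes release most of the circulating albumin, apolipoproteins, fibrinogen, transferrin, antitrypsin, haptoglobin, transthyretin and retinol-binding protein, so that their messengers are abundant in liver and their proteins in plasma. Some of these genes are also active elsewhere: haptoglobin is made by maturing granulocytes and stored in their granules, and retinol-binding protein is made by adipose tissue. Whole blood holds red cell precursors and platelets beside the white blood cells.

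The labelled sample types were checked against markers of blood cells. Of 8 T cell genes, 7 were higher and 1 (TRAC) lower in white blood cells than in whole blood in control, 4 were higher and none lower in HFCD, and 6 were higher and none lower in HFCSD. Of 3 neutrophil genes tested in control none was higher and 1 lower, and of 4 in each fat diet 2 were higher and 1 lower. Of 3 monocyte genes 2 were higher in control and 1 in each fat diet. Among the genes counted as higher, FCGR1A (monocyte) in control and HFCSD entered only through the white blood cells, where it is high. So did PMAP-23 (neutrophil) in both fat diets. The filter itself favoured a difference in these cases, so that these calls support nothing. The 1 B cell gene passed in no diet. KLF1, a transcription factor of red cell precursors, fell from whole blood to white blood cells by 1.33 (log2) in control, 1.5 in HFCD and 2.79 in HFCSD. Of 11 erythroid markers only KLF1 and HBA1 had a probe, and that of HBA1 (a hemoglobin chain) was well above background on 1 of 45 arrays, so red cell content could be followed through KLF1 alone. Platelet markers were present in both sample types, with all 5 measured genes well above background on every array. Their summed level was lower on 1 control white blood cell array (11.12, the others 15.84 to 16.20) and 1 HFCD white blood cell array (10.16, the others 14.13 to 15.61). In HFCD whole blood at 19 weeks it was lower on replicates 1 and 4 (11.75 and 11.74, the others 14.44 and 14.79). APOC3 read 2.11 on the low HFCD white blood cell array and lay within the range of its group on the low control array. On the low whole blood arrays APOC3 read 4.23 (replicate 1) and 6.59 (replicate 4). The part of platelets in these values was not tested. In these bulk samples, fewer cells of a type and less RNA per cell cannot be told apart.

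Most of the members were well above background on few or no arrays. A probe was counted as detected on an array where the scanning software marked its spot as well above background. Only 2 of the 25 member probes (8.0%), A_72_P331100 of TF and A_72_P146486 of RBP4, were well above background on all 45 arrays, against 27.7% of the 43603 probes. On no array at all were 13 member probes (52.0%), against 31.2% of all probes. A total of 256 of the 1125 pairs of a member probe and an array were well above background. By a weaker flag, for a signal that is positive and significant, 574 pairs counted. By that flag 0 member probes counted on no array, against 569 of all probes.

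No probe of albumin (ALB, the main carrier protein of plasma), the fibrinogen gamma chain (FGG, a subunit of the clotting protein) or transthyretin (TTR, a carrier of thyroid hormone) was well above background on any array. The 13 probes well above background on no array had mean levels between 1.53 and 1.99. The dimmest spot called well above background had a level between 2.73 and 4.87, depending on the array. The antitrypsin gene SERPINA1, whose product inhibits neutrophil elastase, was well above background on 1 array only, of HFCD whole blood at 10 weeks. APOB, the structural protein of low-density lipoprotein, had 2 probes that were well above background on any array. These were A_72_P254312 on 2 arrays and A_72_P076311 on 1 array, all of them white blood cell arrays. APOA1, the main protein of high-density lipoprotein, was well above background on 12 arrays with A_72_P192717 and on none with its other probe. These 12 arrays were spread over 8 groups, most often control whole blood at 27 weeks (3 of 4 arrays). No neighbours in the order of its 12 group means differed by more than their spread. Between neighbours among 12 ordered means, steps are small, so that this does not show groups to be alike, here or for other probes.

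**Figure D1:**
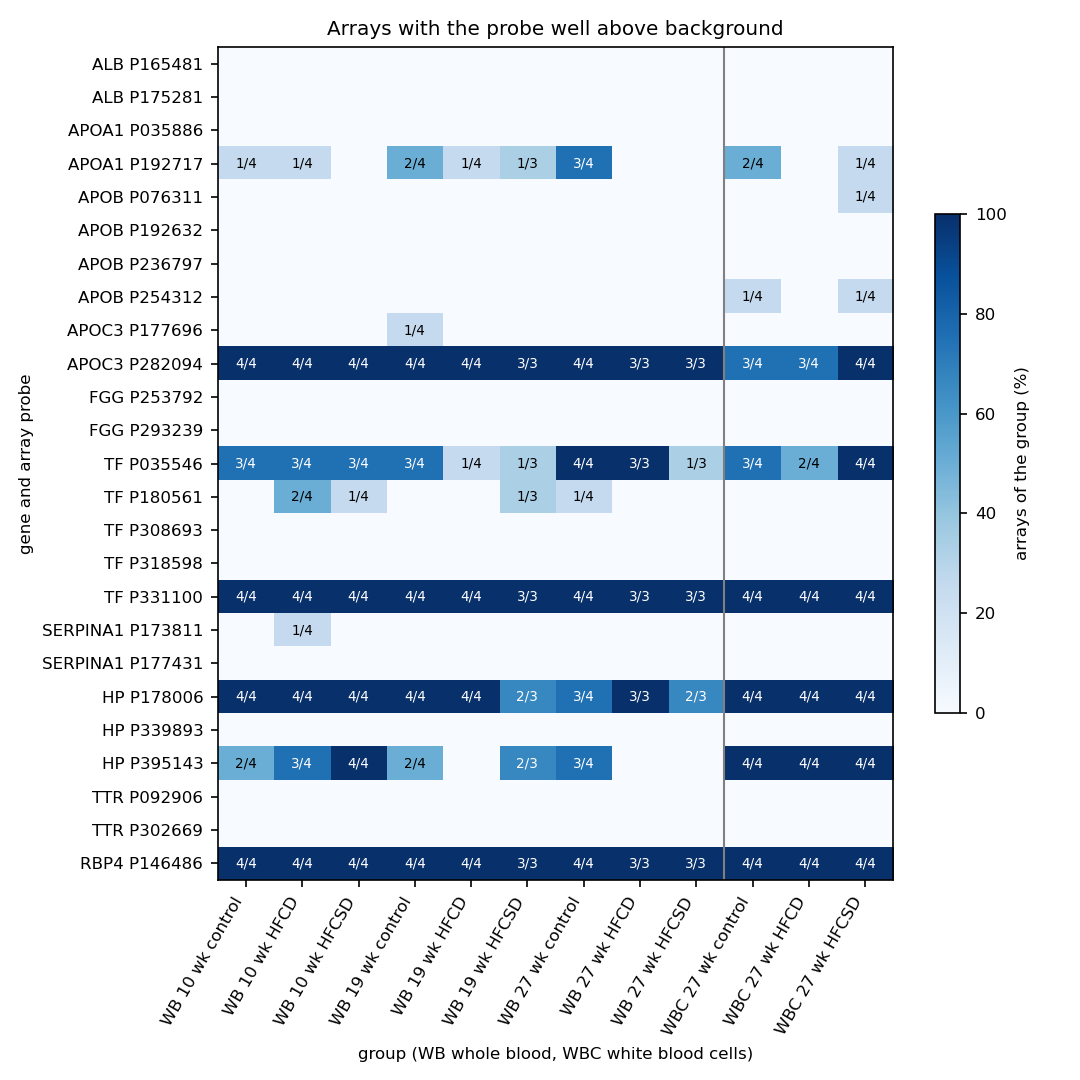
Share of the arrays of each group (percent, colour) on which each of the 25 member probes was well above background; the numbers are arrays detected of arrays measured. At least 1 array in each of the 12 groups was well above background for APOC3 A_72_P282094, TF A_72_P035546, TF A_72_P331100, HP A_72_P178006 and RBP4 A_72_P146486, and ALB, FGG and TTR have none.

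Probes well above background on every array of at least 1 group numbered 6 and came from 4 genes: A_72_P282094 of APOC3, A_72_P035546 and A_72_P331100 of TF, A_72_P178006 and A_72_P395143 of HP, and A_72_P146486 of RBP4. In whole blood, member probes detected on every array of a group numbered 4 in control, 4 in HFCD and 5 in HFCSD after 10 weeks. After 19 weeks these numbers were 4, 4 and 3, and after 27 weeks 4, 5 and 3. For white blood cells they were 4, 4 and 6. Over all probes the corresponding shares lay between 33.1% (HFCD whole blood at 19 weeks) and 42.6% (HFCSD white blood cells).

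APOC3 encodes a small apolipoprotein that slows the clearance of triglyceride-rich particles, and its probe A_72_P282094 was well above background on 33 of 33 whole blood arrays and on 10 of 12 white blood cell arrays. At 27 weeks in whole blood, its 4 control arrays read 5.14, 4.55, 4.51 and 5.73, mean 4.98 (0.58). The 3 HFCD arrays read 4.82, 6.61 and 5.71, mean 5.71 (0.89), and the 3 HFCSD arrays read 7.45, 6.78 and 6.59, mean 6.94 (0.45). Every HFCSD array lay above every control array, while HFCD arrays overlapped with both groups. APOC3 rose with HFCSD by 1.96 (SE 0.44) on the log2 scale, a 3.88-fold difference in means (limma, adjusted p = 0.0264, higher in 3 of 3 arrays). The change of 0.73 with HFCD did not pass (adjusted p = 0.941).

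APOC3 was the only member to pass with HFCSD in whole blood at 27 weeks: 1 of 4 tested rose, and of the 17135 probes tested 10.6% passed. At an unadjusted 0.05, 2 of the 4 passed and 5524 of all probes. The median difference was 0.61 over the 4 member probes and -0.21 over all probes tested. The probe of APOC3 was well above background in both groups, so that it did not enter the test through the high group alone. The call was near the threshold and ended without control replicate 1 (2.01, adjusted p = 0.0739), control replicate 2 (1.81, 0.0676), control replicate 3 (1.8, 0.0741), HFCSD replicate 1 (1.7, 0.1) or HFCSD replicate 2 (2.04, 0.0712). It was kept without control replicate 4 (2.21, 0.0147) or HFCSD replicate 3 (2.13, 0.0342). The call also ended with no filter on dim probes (0.0686) and with the methods' t-test after adjustment (0.0788), and normexp background correction lowered the difference to 1.05 with the call kept (0.0293). Adjusted p was between 0.0131 and 0.1 over all 18 alternatives. The count over all probes changed as well, from 1824 to 95, 217, 159, 104 and 118 without these same arrays in this order, to 2833 without control replicate 4, and to 2251 without HFCSD replicate 3.

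These arrays came from 3 slides that mixed diets, all scanned on 1 day. With the slide as a random block the APOC3 difference was 2.09 (SE 0.41, adjusted p = 0.0156), and within slides it was 2.51 on slide 11 (2 HFCSD arrays and 1 control array) and 2.22 on slide 12 (1 and 1). HFCSD whole blood at 27 weeks also had a lower share of spots well above background, 39.3% (0.473) against 46.2% (5.13) in control and 46.1% (2.66) in HFCD; its part in the result was not tested. The erythroid marker KLF1 moved the same way, from 6.88 (0.67) in control and 7.18 (0.97) in HFCD to 8.80 (0.43) in HFCSD, a rise of 1.91 (adjusted p = 0.0336). KLF1 read 6.47, 6.87, 6.37 and 7.83 on the 4 control arrays and 9.07, 8.30 and 9.02 on the 3 HFCSD arrays, and its part in the APOC3 result was not tested. The summed level of the 5 platelet genes, of which PF4 was the brightest over all arrays, was 14.91, 14.95, 15.25 and 15.06 on the control arrays and 15.05, 14.33 and 12.35 on the HFCSD arrays. No platelet gene passed the test, with a median difference of -1.26.

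No diet passed the test for APOC3 at the earlier times. At 10 weeks its levels were 6.13 (0.58) in control, 5.65 (0.92) in HFCD and 5.97 (0.66) in HFCSD whole blood. At 19 weeks the control arrays read 6.30, 6.56, 5.89 and 6.34, mean 6.27 (0.28), the HFCD arrays 4.23, 6.84, 6.78 and 6.59, mean 6.11 (1.26), and the HFCSD arrays 5.71, 4.94 and 5.56, mean 5.40 (0.41). All 3 HFCSD arrays at 19 weeks lay below all 4 control arrays, with a difference of -0.87 that did not pass (adjusted p = 0.537). The scan day differed for 3 of the 4 controls; against the only control array scanned together with the HFCSD arrays the difference was -0.89.

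Ordered by mean, APOC3 was highest in HFCSD whole blood at 27 weeks and lowest in the white blood cells. After HFCSD at 27 weeks came control whole blood at 19 and 10 weeks, HFCD at 19 weeks, HFCSD at 10 weeks, HFCD at 27 and 10 weeks, HFCSD at 19 weeks and control at 27 weeks, followed by HFCSD, control and HFCD white blood cells. Of the 11 steps between neighbours, 9 were smaller than the larger of the SDs of both groups. The exceptions were the first step (0.67) and the step from control whole blood at 27 weeks to HFCSD white blood cells (0.79).

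The other APOC3 probe, A_72_P177696, shares 36 of its 60 bases with A_72_P282094 and was well above background on 1 of 45 arrays. Its group means at 27 weeks in whole blood, all not well above background, were 2.39 (0.70) in control, 3.27 (0.63) in HFCD and 3.95 (0.40) in HFCSD. Over the 33 whole blood arrays the correlation between both probes was 0.47 (Spearman 0.546). The probes are shown because they overlap and yet differed in detection. Of each, 30 bases are printed from 5′ to 3′, with 6 of the 36 shared bases in capitals. The capitals mark the start of the shared stretch in A_72_P177696 and its end in A_72_P282094.
A_72_P177696: aagggcaagttcaccgacttctggGATTAT
A_72_P282094: TCCTGAgatcttgatatcgccatctgtctg

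**Figure D2:**
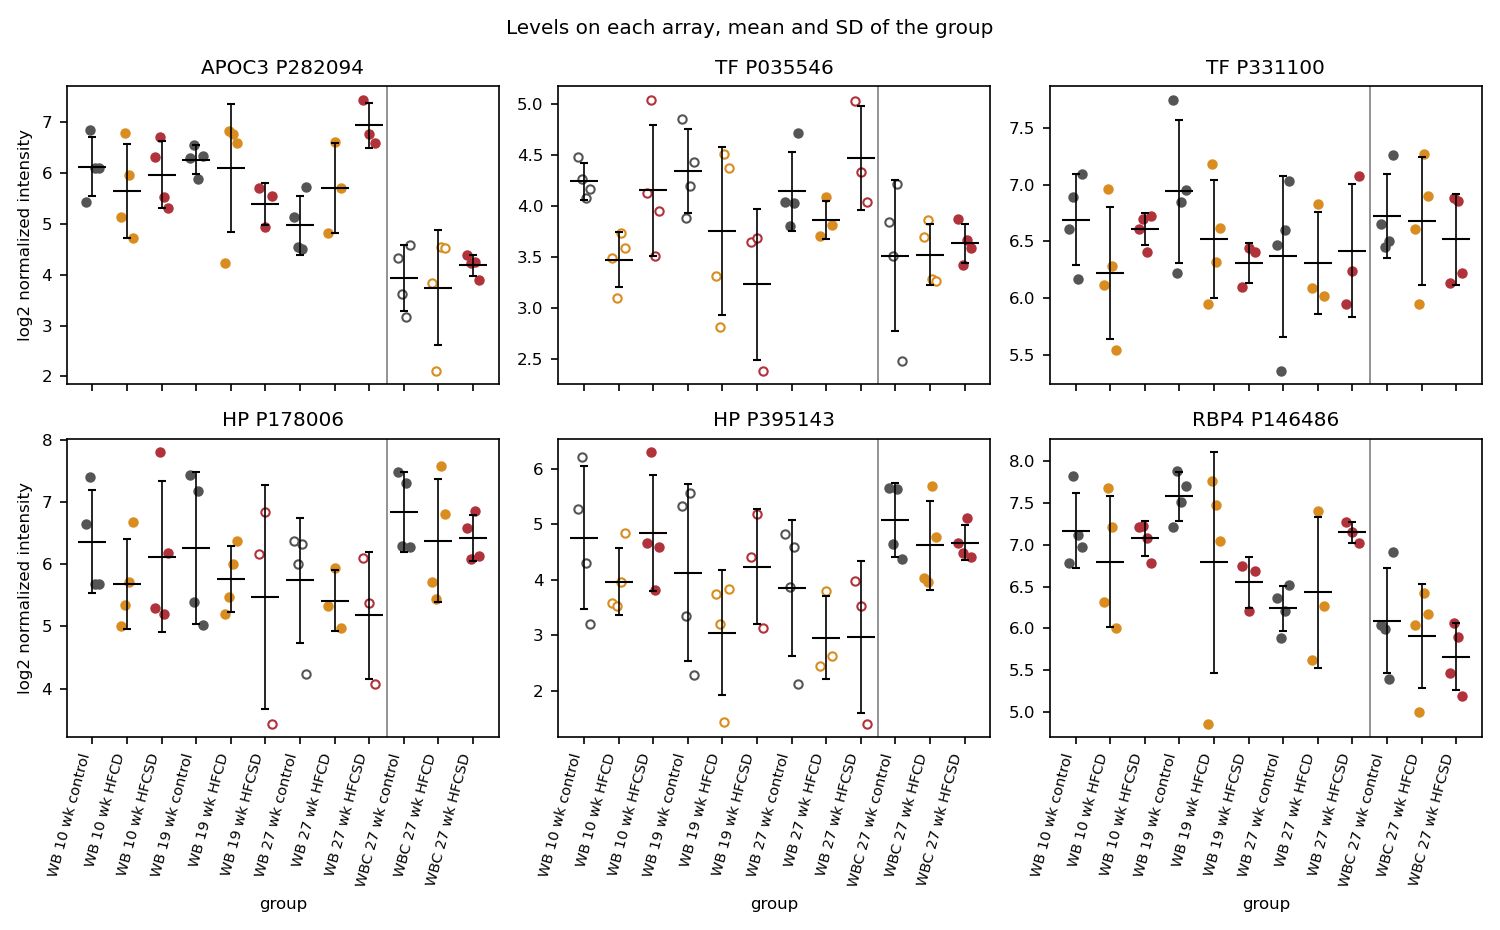
Log2 normalized intensity of the 6 probes well above background on every array of at least 1 group, on each array (circles), with the mean (bar) and SD of each group; WB is whole blood and WBC white blood cells, the colours are the diets, and open circles mark groups in which not every array was well above background. APOC3 reached 6.94 in HFCSD whole blood at 27 weeks and had group means of 4.19 or lower in white blood cells, while TF A_72_P331100 kept means between 6.22 and 6.94.

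RBP4 carries retinol from the liver to other tissues, and its single probe was well above background on all 45 arrays. In whole blood at 27 weeks the control arrays read 6.36, 5.89, 6.21 and 6.52, mean 6.24 (0.27). The HFCD arrays read 5.62, 7.41 and 6.27, mean 6.43 (0.91), and the HFCSD arrays 7.27, 7.16 and 7.02, mean 7.15 (0.13). All HFCSD arrays lay above all control arrays, with a difference of 0.91 (SE 0.36) that did not pass (adjusted p = 0.118). Within slides this difference was 0.94 on slide 11 and 1.27 on slide 12, and with the slide as a random block it was 1.00.

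At 19 weeks the order of RBP4 was the opposite. Control whole blood had 7.58 (0.29), with arrays of 7.22, 7.88, 7.51 and 7.71, and HFCSD had 6.55 (0.30), with arrays of 6.75, 6.21 and 6.69. These groups did not overlap either, and the difference of -1.03 did not pass (adjusted p = 0.482); it was -0.67 against the control array scanned together with them. At 10 weeks the levels were 7.17 (0.45) in control, 6.80 (0.78) in HFCD and 7.08 (0.21) in HFCSD. None of the 11 steps between neighbours in the order of the RBP4 group means exceeded the larger SD. The order ran from control whole blood at 19 weeks (7.58) to HFCSD white blood cells (5.66), a range of 1.92. The 3 white blood cell groups took the 3 lowest places. Steps between neighbours do not compare the ends of the order.

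APOC3 and RBP4 varied together over the whole blood arrays. Their correlation was 0.868 over 33 arrays and 0.921 after the group means were taken out. Among 1452 named probes well above background on all whole blood arrays, those most like APOC3 were DES (desmin, r = 0.949, Spearman 0.941), GATA2 (a transcription factor of blood progenitors, r = 0.943, Spearman 0.927) and SREBP-2 (a regulator of sterol synthesis, r = 0.940, Spearman 0.933). Those most like RBP4 were F8 (coagulation factor VIII, r = 0.941, Spearman 0.922), AE2 (an anion exchanger, r = 0.939, Spearman 0.943) and SREBP-2 (r = 0.929, Spearman 0.916). Without the 2 arrays farthest from the median these 6 values were between 0.913 and 0.942.

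Of the 12814 probes present on all whole blood arrays, 187 (1.46%) had r above 0.9 with APOC3 and 65 (0.507%) with RBP4, while the median r was -0.265 for APOC3. The correlation of KLF1 over the 33 arrays was 0.75 with APOC3 and 0.572 with RBP4, and over the 10 arrays at 27 weeks it was 0.889 and 0.771. Guanine and cytosine made up 51.7% of the APOC3 probe and 55.0% of the RBP4 probe, a median of 43.3% of the probes with r above 0.9 with APOC3, and a median of 38.3% of all probes compared. The part of base composition in these correlations was not tested. The first 30 bases of the RBP4 probe are shown for this composition.
A_72_P146486: actccttcgtgtttgcccgagacccccacg

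Transferrin (TF) delivers iron to dividing cells, and 4 of its 5 probes are named after a single cDNA clone from liver. They differed in detection: A_72_P331100 was well above background on 45 arrays, A_72_P180561 on 5, and A_72_P308693 and A_72_P318598 on none. Those on 5 and on no arrays, A_72_P180561 and A_72_P318598, share 32 bases. The lines give the first 30 bases of A_72_P331100 and A_72_P308693, to show that probes of 1 record differ. Of the overlapping pair, 30 bases are given with 6 shared bases in capitals. These mark the start of the shared stretch in A_72_P180561 and its end in A_72_P318598.
A_72_P331100: ttaacagttgtaaatttgatcagtttttcg
A_72_P308693: cctcaaaactcctggaagcctgtactttcc
A_72_P180561: taaagattccctctaagatggactCCTCGC
A_72_P318598: GTCACTgctcttcggaatctaagagaagaa

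TF A_72_P331100 had the narrowest range of the detected probes, 0.72 (log2). Its 12 group means lay between 6.22 (0.58) in HFCD whole blood at 10 weeks and 6.94 (0.63) in control whole blood at 19 weeks, and no neighbours in that order differed beyond their spread. In whole blood at 27 weeks it read 6.47, 5.36, 6.60 and 7.03 on control arrays, 6.09, 6.83 and 6.02 on HFCD arrays, and 5.95, 6.24 and 7.08 on HFCSD arrays. These groups overlapped, and adjusted p was 0.935 for HFCSD. Over 33 whole blood arrays the named genes most like it were AQP5 (a water channel, r = 0.789, Spearman 0.75), LOC100127145 (described on the array as a small intestinal mucin, r = 0.710, Spearman 0.630) and OLR1 (a receptor for oxidized low-density lipoprotein, r = 0.679, Spearman 0.619).

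The fifth TF probe, A_72_P035546, was annotated on the array as the porcine inhibitor of carbonic anhydrase (PICA), a relative of transferrin, and came in through its RefSeq entry. It was well above background on 31 of 45 arrays, and its group means lay between 3.23 (0.74) in HFCSD whole blood at 19 weeks and 4.47 (0.51) in HFCSD whole blood at 27 weeks. No neighbours in the order differed beyond their spread. Its most similar named genes were LOC396719 (r = 0.731, Spearman 0.850), P2RY6 (a nucleotide receptor, r = 0.653, Spearman 0.731) and TNNI3 (cardiac troponin I, r = 0.644, Spearman 0.676).

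Haptoglobin (HP) binds free hemoglobin and is an acute-phase protein. Of its 3 probes, A_72_P178006 was well above background on 42 arrays, A_72_P395143 on 28, and A_72_P339893 on none. A_72_P178006 had its 3 highest group means in white blood cells, 6.84 (0.64) in control, 6.42 (0.37) in HFCSD and 6.38 (0.99) in HFCD. Its lowest was in HFCSD whole blood at 27 weeks, 5.18 (1.02), where the arrays read 6.10, 5.37 and 4.08. No neighbours in the order differed beyond their spread, and the largest SD was 1.80, in HFCSD whole blood at 19 weeks.

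A_72_P395143 of HP correlated with A_72_P178006 over the 33 whole blood arrays (r = 0.797, Spearman 0.826). It was well above background on 12 of 12 white blood cell arrays and on 16 of 33 whole blood arrays, and on none of the whole blood arrays of HFCD at 19 weeks, HFCD at 27 weeks and HFCSD at 27 weeks. The genes most like HP A_72_P178006 were RETN (resistin, r = 0.668, Spearman 0.729), NPY (a neuropeptide, r = 0.611, Spearman 0.612) and MMP9 (a neutrophil gelatinase, r = 0.567, Spearman 0.387). Without the 2 arrays farthest from the median, r of MMP9 was 0.331. The first 30 bases of the 3 probes are shown since their detection ranged from 42 arrays to none.
A_72_P178006: atctgaagtatgtcatgctgccggtggctg
A_72_P395143: tctatgtgggaaagaaacaggaggtggaga
A_72_P339893: aaccactggagctgtgttagcccaagtata

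With limma no member passed in the other 7 comparisons of a diet with control, neither after adjustment nor at an unadjusted 0.05, where between 280 and 2158 of all probes tested passed. In whole blood at 10 weeks, 0 of 4 tested passed with HFCD (0.0281% of all probes tested) and 0 of 5 with HFCSD (0.0123%). At 19 weeks it was 0 of 4 with HFCD (0.0181%) and 0 of 4 with HFCSD (0.0175%), and at 27 weeks 0 of 5 with HFCD (0.0165%). In white blood cells 0 of 4 passed with HFCD (0.0276%) and 0 of 6 with HFCSD (0.0366%). The median difference over the members tested lay between -0.82 (HFCSD at 19 weeks, all probes 0.04) and -0.05 (HFCD at 27 weeks, all probes -0.03). The 2 fat diets share their controls at each time.

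The change over the dietary period was tested in whole blood as 27 against 10 weeks. In control pigs 0 of 5 members passed, with 20.7% of all probes passing; at an unadjusted 0.05, 2 members and 6086 of 17140 probes did. The 2 members were APOC3 at -1.14 (adjusted p = 0.101) and RBP4 at -0.93 (adjusted p = 0.129), both lower at 27 weeks. With the replicate number as a block both passed (APOC3 adjusted p = 0.0333, RBP4 adjusted p = 0.0334), and with only these 2 groups in the fit RBP4 did (adjusted p = 0.0373). Residuals of control samples with the same replicate number correlated by -0.004 on average between these times, and by more than 0.1 in 1 of 4 pairs. In the same comparison KLF1 differed by -1.16 (adjusted p = 0.12), and 5 of 7 T cell genes fell and none rose, CD3E by -2.12 and CD3D by -1.76; their part in these values was not tested. With HFCD 0 of 5 passed (5.6% of all probes; at an unadjusted 0.05, no member and 3859 of 18862 probes) and with HFCSD 0 of 5 (10.3%; unadjusted, 1 member and 4409 of 16461 probes). That member, HP A_72_P395143, was well above background on 4 of 4 HFCSD arrays at 10 weeks and 0 of 3 at 27 weeks. It entered only through the former, so that the filter itself favoured a difference. APOC3 differed by 0.97 and RBP4 by 0.07 with HFCSD. Residuals with the same replicate number correlated by 0.261 on average in HFCD (more than 0.1 in 2 of 3 pairs) and 0.34 in HFCSD (3 of 3). Leaving out 1 array moved the count over all probes from 3546 to between 2356 and 3727 in control. That count moved from 1057 to between 265 and 1002 in HFCD, and from 1702 to between 626 and 1818 in HFCSD. Feeding period and scan day cannot be told apart here.

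Contribution indicators, the ratios of mean linear intensity in white blood cells to that in whole blood at 27 weeks, ranged over the members from 0.145 to 2.24. APOC3 had 0.487 in control (16.4 over 33.7), 0.273 in HFCD (16.2 over 59.3) and 0.145 in HFCSD (18.4 over 127.0). RBP4 had 0.952, 0.648 and 0.364. Over all probes tested the median ratio was 1.13, 1.15 and 1.33, and a ratio lower than that of APOC3 was found for 16.6%, 9.89% and 6.94% of them. TF A_72_P331100 had 1.21, 1.32 and 1.04, and TF A_72_P035546 had 0.685, 0.797 and 0.541. HP A_72_P178006 had 2.00, 2.24 and 2.07, higher than the ratio of 82.7%, 85.2% and 74.7% of all probes. HP A_72_P395143 had 2.04 in control, and APOA1 A_72_P192717 had 0.524 there.

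**Figure D3:**
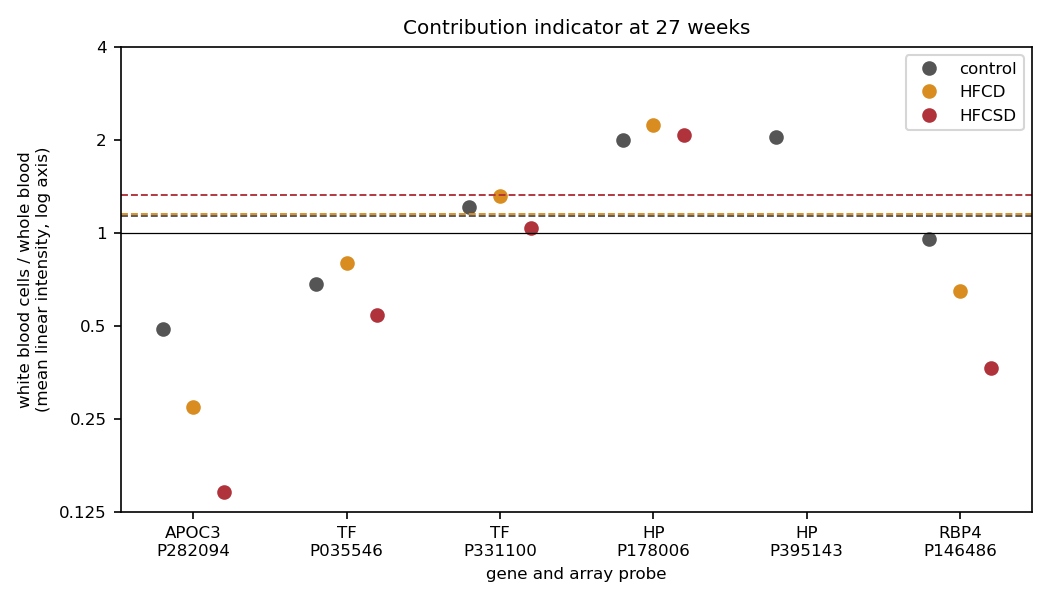
Mean linear intensity in white blood cells divided by that in whole blood at 27 weeks (log axis) for 6 member probes in each diet; dashed lines mark the median over all probes tested in a diet. APOC3 and RBP4 lay below 1 in each diet and HP A_72_P178006 at 2.00 or above, and HP A_72_P395143 has no point in HFCD and HFCSD, where whole blood was not well above background.

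The white blood cell arrays of APOC3 read 4.34, 3.63, 3.16 and 4.59 in control, 3.83, 2.11, 4.54 and 4.53 in HFCD, and 4.39, 4.23, 4.26 and 3.90 in HFCSD. In HFCD and HFCSD all of them lay below all whole blood arrays, and in control the groups overlapped. APOC3 fell from whole blood to white blood cells in HFCSD by 2.75 (SE 0.52, adjusted p = 0.000197). In control and in HFCD it was well above background on 3 of 4 white blood cell arrays and entered the test only through whole blood, where it is high. Only its levels, their ratio and the place of that ratio among all probes are therefore given there. Sample type cannot be told apart from the RNA kit and the scan day, which differed between whole blood and white blood cells. The HFCSD call was kept in 17 of 17 alternatives, with differences between -2.92 and -1.29, the smallest with normexp.

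RBP4 fell from whole blood to white blood cells in HFCSD by 1.49 (SE 0.40, adjusted p = 0.00349). Its HFCSD white blood cell arrays read 5.47, 6.07, 5.90 and 5.19, all below the whole blood arrays, and the call was kept in 17 of 17 alternatives, with differences between -1.63 and -0.88. In control (-0.16, adjusted p = 0.748) and HFCD (-0.52, adjusted p = 0.285) it did not pass and the groups overlapped.

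HP A_72_P395143 entered these tests in HFCD and HFCSD only through the white blood cell arrays, where it is high. The filter itself thus favoured a difference, and only its levels and bounds on the fold are given. Where a probe was not well above background on any array of a group, the fold is a bound, taken against the lowest level marked well above background on each array or the probe's own level if higher. White blood cells were at least 2.21-fold higher in HFCD and at least 1.3-fold higher in HFCSD. White blood cell arrays read 4.04, 3.97, 5.70 and 4.77 in HFCD and 4.67, 4.48, 5.11 and 4.41 in HFCSD, above all whole blood arrays of the same diet. HP A_72_P178006 differed by 0.97 in HFCD, which did not pass (adjusted p = 0.166). In control and HFCSD it was well above background on 3 of 4 and 2 of 3 whole blood arrays, entered only through the white blood cells, where it is high, and did not pass either.

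TF A_72_P035546, the probe annotated as PICA, fell in HFCSD by 0.83 (SE 0.33, adjusted p = 0.0366), although only 1 of its 3 whole blood arrays was well above background. These arrays read 5.03, 4.33 and 4.04 in whole blood and 3.87, 3.42, 3.66 and 3.58 in white blood cells, without overlap. The call ended without whole blood replicate 1 (-0.55, adjusted p = 0.213) or 2 (-0.9, 0.0547) and without white blood cell replicate 2 (-0.76, 0.0805), 3 (-0.84, 0.0579) or 4 (-0.81, 0.066). It was kept in 7 of 17 alternatives, with adjusted p between 0.0023 and 0.213. TF A_72_P331100 did not pass in any diet, with differences of 0.35, 0.37 and 0.10.

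Counted over the members tested, 0 of 6 passed between sample types in control (limma; 45.3% of all probes tested passed; at an unadjusted 0.05, 2 members and 9964 of 19022 probes). Of these 6, APOC3, TF A_72_P035546 and the 2 HP probes entered only through the group where they are high. In HFCD 2 of 6 passed, 1 lower in white blood cells and 1 higher (47.5% of all), and in HFCSD 4 of 6, 3 lower and 1 higher (58.8% of all). HP A_72_P395143, higher in both diets, and APOC3, lower in HFCD, entered only through the group where they are high. The filter itself favoured a difference there, so that the HFCD count supports nothing and 3 probes remain in HFCSD. The median difference over all probes tested was 0.17 in control, 0.19 in HFCD and 0.42 in HFCSD. Scaling by the 75th percentile moved the median over all probes by 0.135 in control and 0.189 in HFCD, and normexp moved it by -0.192 in HFCSD.

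Whether the ratio itself differed between diets was tested as a difference of differences. For HFCD minus control 0 of 6 members passed (0.0% of all probes; limma, no member at an unadjusted 0.05). For HFCSD minus control 0 of 6 passed (1.38% of all probes; unadjusted, 2 members and 3922 of 20379 probes). The 2 were APOC3, with -1.69 (SE 0.70, adjusted p = 0.197), and RBP4, with -1.33 (SE 0.54, adjusted p = 0.187). The APOC3 ratios of 0.487, 0.273 and 0.145 are thus values whose difference between diets did not pass the test. Over all probes the count for HFCSD minus control was 281, and between 38 and 1045 leaving out 1 array.

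Further genes of the same kind were taken from fixed lists. Of 76 other liver plasma proteins 51 had a probe; 11 of the 51 had a probe on every array and 15 were detected on no array. Those with the brightest probes were SERPING1 (inhibitor of the first complement component), F5 (coagulation factor V) and IGFBP1 (a binding protein of insulin-like growth factors). With HFCSD in whole blood at 27 weeks 5 of 15 tested genes rose and none fell, where 1161 of the 17135 probes tested rose and 663 fell (10.6% in all), with a median of 0.63 against -0.21 over all probes. CRP, an acute-phase protein, rose by 3.17 (adjusted p = 0.0229), from 7.39 (0.74) in control to 10.56 (0.40). VTN (vitronectin, an adhesion protein) rose by 2.82 (adjusted p = 0.0283), F10 (coagulation factor X) by 2.63 (adjusted p = 0.0197), and ITIH4 (a heavy chain of the inter-alpha-trypsin inhibitor family) by 2.31 (adjusted p = 0.0476). IGF1, a growth factor that also cells outside the liver make, rose by 1.91 (adjusted p = 0.0295) and is named after its values were seen.

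Lipoprotein assembly and clearance had 7 of 15 genes on the array, and 5 were tested. Among them PLTP, which transfers phospholipids, rose by 2.19 and SORT1, a sorting receptor, fell by 1.13 with 1 of its probes. Of 7 measured of 11 genes for retinol and thyroid hormone carriers and receptors, 4 were tested, and RBP7, a retinol-binding protein inside cells, was called lower. It was well above background on 1 of 3 HFCSD arrays and entered the test through the control arrays, where it is high. The filter itself favoured a difference, so that this call supports nothing and no size is given. Of 18 measured of 30 hepatocyte genes that are not secreted, 11 were detected on no array, 5 were tested, and HPD, an enzyme of tyrosine breakdown, rose by 1.31 with 1 of its probes. None of 5 tested iron handling genes passed (median 0.18). Of the other cell markers, none of 3 neutrophil genes, 2 monocyte genes, 7 T cell genes and 1 B cell gene passed, with medians of -0.30, -0.09, 0.02 and 0.00 (limma). All 11 list probes called in this comparison lost their call with no filter on dim probes, with the methods' t-test after adjustment, and without any 1 of control replicates 1, 2 and 3 and HFCSD replicates 1 and 2, and 8 of the 11 passed without HFCSD replicate 3. No list gene passed in the other 7 comparisons with control.

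Between sample types the liver lists moved both ways. In HFCSD 18 of the other plasma protein genes were tested, of which 5 were higher and 9 lower in white blood cells, where 7310 of the 19689 probes tested were higher and 4259 lower (58.8% in all), with a median of 0.48 against 0.42 over all probes. CRP fell by 4.96 and VTN fell by 4.37, and ITIH4 was at least 10.6-fold lower. ITIH4 was well above background on no white blood cell array here, and SAA2, RXRA and PMAP-23, counted as higher in their lists, on no whole blood array. They entered only through the group where they are high, so that the filter itself favoured a difference. The same holds for FCGR1A, the monocyte gene counted as higher, which was not well above background on every whole blood array. F12 (coagulation factor XII) was higher by 2.23. CRP differed by -1.95 in control and -3.46 in HFCD. Of the 5 hepatocyte genes tested 4 were lower and 1 was higher: HNF4A (a nuclear receptor of hepatocytes) fell by 4.40, BHMT (an enzyme of methionine synthesis) fell by 3.67 and ARG1 (a urea cycle enzyme) fell by 3.42, while GLUL (glutamine synthetase) was higher. In the same comparison 2 of 5 lipoprotein genes, 2 of 5 retinol and thyroid hormone genes and 1 of 3 monocyte genes were higher and none lower, 2 of 5 iron handling genes were higher and 2 lower, 2 of 4 neutrophil genes were higher and 1 lower, and no platelet gene (5 tested) or B cell gene (1 tested) passed. The ratio differed between HFCSD and control for CRP (-3.02, adjusted p = 0.0459) and F10 (-3.65, adjusted p = 0.0137) among 20 tested liver plasma genes. PMAP-23, a neutrophil peptide, passed there too, but was well above background on no HFCSD whole blood array, so that no size is given. Over 22 alternatives F10 kept its call in 20 and CRP in 5. F10 kept it whichever of the 15 arrays was left out and lost it with the replicate block and with all 45 arrays in 1 fit. Leaving out 1 array, CRP kept its call in 2 of 15 cases.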

How the data were processed

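The deposited files hold, per the file headers, the intensity of each spot on a linear scale (processed signal of Agilent Feature Extraction, background subtracted within the array); the deposited series table holds intensity that the authors had quantile normalized, and was an alternative only. The labels name Feature Extraction 9.5.3.1 and the file headers another version. Each of 45 arrays has 45220 spots, of which 43803 are not controls. The log2 of the processed signal was quantile normalized across the 45 arrays; outlier spots were dropped and the remaining spots averaged per probe. A probe was tested if well above background on every array of at least 1 group compared.

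R 4.3.3, limma 3.58.1, Python 3.11.15, pandas 2.3.3, numpy 2.4.6 and matplotlib 3.10.9 were used. All tests are limma fits (lmFit, eBayes) with Benjamini-Hochberg adjustment over all probes tested, at 0.05: 3 diet groups per fit for diets, 6 groups at 27 weeks for sample types and their differences, 9 groups for time. The fit was tested on simulated data. Members and lists were chosen with earlier results of these data known. Named genes are the members; of each list the 3 genes detected on most arrays and at most 3 called genes per comparison; and the 3 named genes most correlated with each member probe detected on at least 30 arrays. Not all of them are named. Alternatives were 75th percentile scaling, normexp with an offset of 50, the authors' series table, the weaker presence flag, no filter, the replicate number as a block, a block for slide or for scan day, all 45 arrays or only 2 groups in a fit, the methods' t-test, and each array left out.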

Additional observations from a re-analysis of the deposited data

Results flagged for a closer look

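Among 68 pairs of a detected member probe and a group of 4 arrays, 3 had 1 array far from the others, where chance gives about 5%. APOB A_72_P076311 read 6.21 in HFCSD white blood cells replicate 4, against 1.39 to 1.62 on the other 3 arrays, a gap of 0.952 of the whole range. APOB A_72_P254312 read 4.04 in HFCSD white blood cells replicate 3, against 1.39 to 1.44 (gap 0.979). APOC3 A_72_P282094 read 4.23 in HFCD whole blood at 19 weeks replicate 1, against 6.59 to 6.84 (gap 0.905), and on the same array RBP4 read 4.86. Its summed platelet level was 11.75 (replicate 4 had 11.74, the others 14.44 and 14.79). Its summed T cell level was 13.89 (the others 12.85 to 13.14) and its KLF1 level 6.39 (the others 7.61 to 9.48). Their part in the APOC3 and RBP4 values was not tested.

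With HFCSD in whole blood, APOC3 was above every control array at 27 weeks (difference 1.96) and below every control array at 19 weeks (difference -0.87). RBP4 did the same, with 0.91 at 27 weeks and -1.03 at 19 weeks. The difference between both times was not tested.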

How the results depend on the processing

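Of 145 results compared, 144 kept their direction and side of the threshold with the authors' series table, 130 each with 75th percentile scaling, normexp and the weaker presence flag, 107 with no filter, 126 with all 45 arrays in 1 fit and 123 with the replicate block; none reversed. With only the 2 groups compared 124 of 142 results kept both, and with the slide as a random block 30 of 38. The methods' t-test kept both for 89 of 115 with a fold of 2 and for 77 of 115 after adjustment. Of 1085 comparisons that left out 1 array, 817 kept both. The causes of the changes were not tested. The 145 results are member and named list probes called in the tests reported above, so calls gained under an alternative are not counted. They include probes that entered only through the group where they are high.

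The number of member probes called changed as follows. HFCSD against control in whole blood at 19 weeks: 1 with the methods' t-test with a fold of 2. At 27 weeks (1 called): 0 with no filter on dim probes, 2 with only the 2 groups compared, 0 with the methods' t-test after adjustment, and 0 to 2 leaving out 1 array. White blood cells against whole blood: in control 0 to 1 leaving out 1 array; in HFCD (2 called) 1 with no filter, 1 with the replicate block, 1 with all 45 arrays in 1 fit, 1 with the t-test with a fold of 2, 0 after adjustment, and 1 to 2 leaving out 1 array; in HFCSD (4 called) 2 with all 45 arrays, 2 with the t-test with a fold of 2, 2 after adjustment, and 2 to 4 leaving out 1 array. The other settings gave 3 to 5 in HFCSD, not always of the same probes: TF A_72_P035546 lost its call in 5 and HP A_72_P395143 in 6 of 10 alternatives beside leaving out 1 array. The ratio of HFCSD minus control: 1 with normexp. From 10 to 27 weeks: in control 2 with the replicate block and 1 with only the 2 groups compared, and in HFCSD 1 with the weaker flag. The counts for HFCD and HFCSD between sample types include HP A_72_P395143, and that for HFCD also APOC3, which entered only through the group where they are high. Probes detected on every array of a group numbered 14 with the weaker flag instead of 6.

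With the replicate block, APOC3 differed by 2.21 (adjusted p = 0.0279, 0.0131 to 0.1 over its alternatives) between HFCSD and control at 27 weeks. Residuals of samples with the same replicate number correlated by more than 0.1 in 11 of 29 pairs across diets, 13 of 20 across time and 6 of 10 across sample types, and replicate numbers were not used to pair samples in the tests reported. Normexp moved the median ratio contrast of all probes by -0.151 for HFCSD, and the scan day as a block moved the median at 19 weeks by 0.131 for HFCD and 0.192 for HFCSD. Signal over background limits the results: 19 of the 25 member probes were not well above background on every array of any group.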
